A study of Mus musculus with 20 samples.

Results

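The genes described here encode the Slc25a family of mitochondrial carriers. They were chosen as every row of the count table whose symbol is Slc25a followed by a number and whose mean over the 20 samples was at least 1 CPM (counts per 1e+06 counts assigned to genes). The table of 37620 genes held 47 such rows, and 39 passed. The values that chose them are their own mean levels, so the levels are given as a description. Just inside the limit were Slc25a47 (mean 1.30 CPM) and Slc25a27 (2.15 CPM), and just outside were Slc25a43 (0.51 CPM) and Slc25a2 (0.46 CPM). The other rows left out were Slc25a34, Slc25a18, Slc25a31, Slc25a41, Slc25a48 and Slc25a54. All 39 passed the low-count filter and were among the 17824 genes tested, but 3 of them had a mean under 1 CPM in at least 1 group: Slc25a21 and Slc25a47 in normal cells and Slc25a27 in Myc lymphomas.

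RNA was sequenced from B220+ cells, a fraction enriched for B lymphocytes with magnetic beads against the surface marker B220 (CD45R), of C57BL/6 mice. The 3 groups were normal spleen without a transgene or retroviral vector named in the labels (n = 4), VavPBcl2 lymphomas transduced with empty vector (n = 8) and VavPBcl2 lymphomas transduced with Myc (n = 8). All lymphomas carry the VavPBcl2 transgene, in which the pan-hematopoietic Vav promoter drives the survival gene Bcl2, so neither lymphoma group shows the effect of Myc without Bcl2, and the transgene is not restricted to B cells. The cells came directly from mice without culture, and the labels give neither ages nor whether the samples of a group were separate animals, so the p-values rest on the spread among the samples as deposited.

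Mitochondrial carriers sit in the inner membrane and swap a solute of the cytosol against one of the matrix, in most members by a binding site that opens to the sides in turn. They bring in phosphate and ADP for ATP synthesis, export ATP and citrate, shuttle reducing equivalents as malate and aspartate, and supply the matrix with cofactors it cannot make. Myc is a transcription factor that binds DNA with its partner Max, with CACGTG (an E-box) as its best known site, and lymphomas driven by it are known for high demands on nucleotide and amino acid synthesis.

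The gene counts of a sample summed to between 28726309 and 56303148. The Myc transcript was at 229, 218, 179 and 343 CPM in the 4 normal samples, at 48.3 to 226 CPM in vector lymphomas (median 101) and at 313 to 1646 CPM in Myc lymphomas (median 909), so all Myc lymphomas lay above all vector lymphomas and 1 of them, replicate 5, fell within the normal range. Of 8 B-cell markers, 7 fell in Myc against vector lymphomas and 0 rose. In this comparison 26.6% of all genes rose and 21.9% fell. The markers' summed level was 5879 ± 567 CPM (mean ± SD, n = 4) in normal samples, 6300 ± 1253 CPM (n = 8) in vector lymphomas and 2297 ± 1428 CPM (n = 8) in Myc lymphomas. The 14 erythroid markers summed to 226 to 3445 CPM in normal samples, 3759 to 20042 CPM in vector lymphomas and 5947 to 86003 CPM in Myc lymphomas. Of 8 markers each, Myc against vector lymphomas showed 7 NK and cytotoxic genes higher, 5 neutrophil genes higher, 5 plasmacytoid dendritic genes higher and 1 lower, 2 T-cell genes higher and 2 lower, and 1 macrophage and monocyte gene higher and 1 lower. The 8 neutrophil markers summed to 76.4 to 899 CPM, 53.2 to 5752 CPM and 1601 to 16447 CPM in the same order. In such mixed samples, fewer cells of a type and less RNA per cell cannot be told apart, and the part these cell types play in the results was not tested beyond the erythroid values below. Sequencing runs are numbered on instruments named Han, Lei, Luk and Yod, and the higher-numbered runs of each are called later here. Normal replicate 1 and vector replicates 1 to 6 came from such later sequencing runs. In those 7 samples the mitochondrially encoded genes took 0.387% to 1.05% of gene counts, against 5.03% to 21.6% in the 13 samples of earlier runs. No Myc lymphoma was in a later run, so Myc against vector lymphomas can be compared within the earlier runs only as 8 samples against 2. Both vector lymphomas of the earlier runs carry a title prefix that no other sample has. In the vector group the run and whatever that prefix stands for cannot be told apart. This holds for every earlier-run and run-term value below.

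Promoter sequences were looked up because Myc differs between the groups. RefSeq promoters (GRCm38.p6, 250 bases before to 50 after each start) were found for 30 of the 39 carriers, and 6 of these 30 genes (20%) hold the E-box CACGTG, which reads the same on both strands. Among 27025 genes with a promoter of this length, 8.09% hold it. The 6 matches are shown 5′ to 3′ on the gene's strand with the E-box in capitals, with the position of its first base from the start site.
Slc25a33 (chr4:149774268-149774287, minus strand, position -8): cccggcctccgcCACGTGac
Slc25a14 (chrX:48623382-48623411, plus strand, position -54, or -184 from a second start): tccacctccctcCACGTGacgccccaccca
Slc25a15 (chr8:22398337-22398366, minus strand, position -77): cgccctgccgcaCACGTGccgcggctccgg
Slc25a13 (chr6:6217281-6217310, minus strand, position -125): cacagtctgagtCACGTGtcctggcccctc
Slc25a36 (chr9:97111211-97111240, minus strand, position -187): cccctgggcgatCACGTGaaagaggcgtgc
Slc25a1 (chr16:17928441-17928469, minus strand, position -239): cgctccagacgCACGTGtctctaaactgc
Of these 6 genes, Slc25a1, Slc25a13 and Slc25a15 rose in Myc against vector lymphomas and Slc25a14, Slc25a33 and Slc25a36 did not pass the test. The median log2 fold change was 0.32 over the 6 and 0.35 over the 24 carriers with a promoter but no E-box, of which 10 rose and 1 fell, beside 26.6% and 21.9% of all genes. A match is a stretch of letters and was not tested as a binding site.

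Against vector lymphomas, 15 of 39 carriers rose in Myc lymphomas and 2 fell (edgeR quasi-likelihood test, Benjamini-Hochberg adjusted p under 0.05 over all 17824 genes). Of all genes tested, 26.6% rose and 21.9% fell. At least 2-fold changes were called for 4 carriers upward and 2 downward, beside 17.8% and 10.4% of all genes, and the groups did not overlap for 1 carrier upward and 2 downward, beside 5.12% and 6.38%. The carriers' median log2 fold change was 0.35, beside 0.08 over all genes, with 31 of 39 above 0. Vector lymphomas differed from normal cells in fewer carriers: 7 rose and 1 fell, beside 7.46% and 3.36% of all genes, with a median of 0.04 beside -0.03. Of these carriers, 3 rose at least 2-fold (6.13% of all genes), and groups did not overlap for 6 carriers upward and 1 downward (7.33% and 5.91% of all genes). Between Myc lymphomas and normal cells 13 carriers rose and 2 fell, beside 21.5% and 17.9% of all genes, with a median of 0.21 beside 0.08. Here 9 rose and 1 fell at least 2-fold (16.3% and 9.45% of all genes), and groups did not overlap for 10 upward and 2 downward (13.1% and 14.3%). The comparisons share samples with each other. The 10 carriers that rose against both vector lymphomas and normal cells were Slc25a1, Slc25a3, Slc25a4, Slc25a5, Slc25a12, Slc25a13, Slc25a15, Slc25a37, Slc25a39 and Slc25a47. Called in none of the 3 comparisons were 17 carriers: Slc25a11, Slc25a14, Slc25a16, Slc25a22, Slc25a24, Slc25a26, Slc25a28, Slc25a29, Slc25a30, Slc25a35, Slc25a36, Slc25a40, Slc25a42, Slc25a44, Slc25a45, Slc25a46 and Slc25a51.

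**Figure D1:**
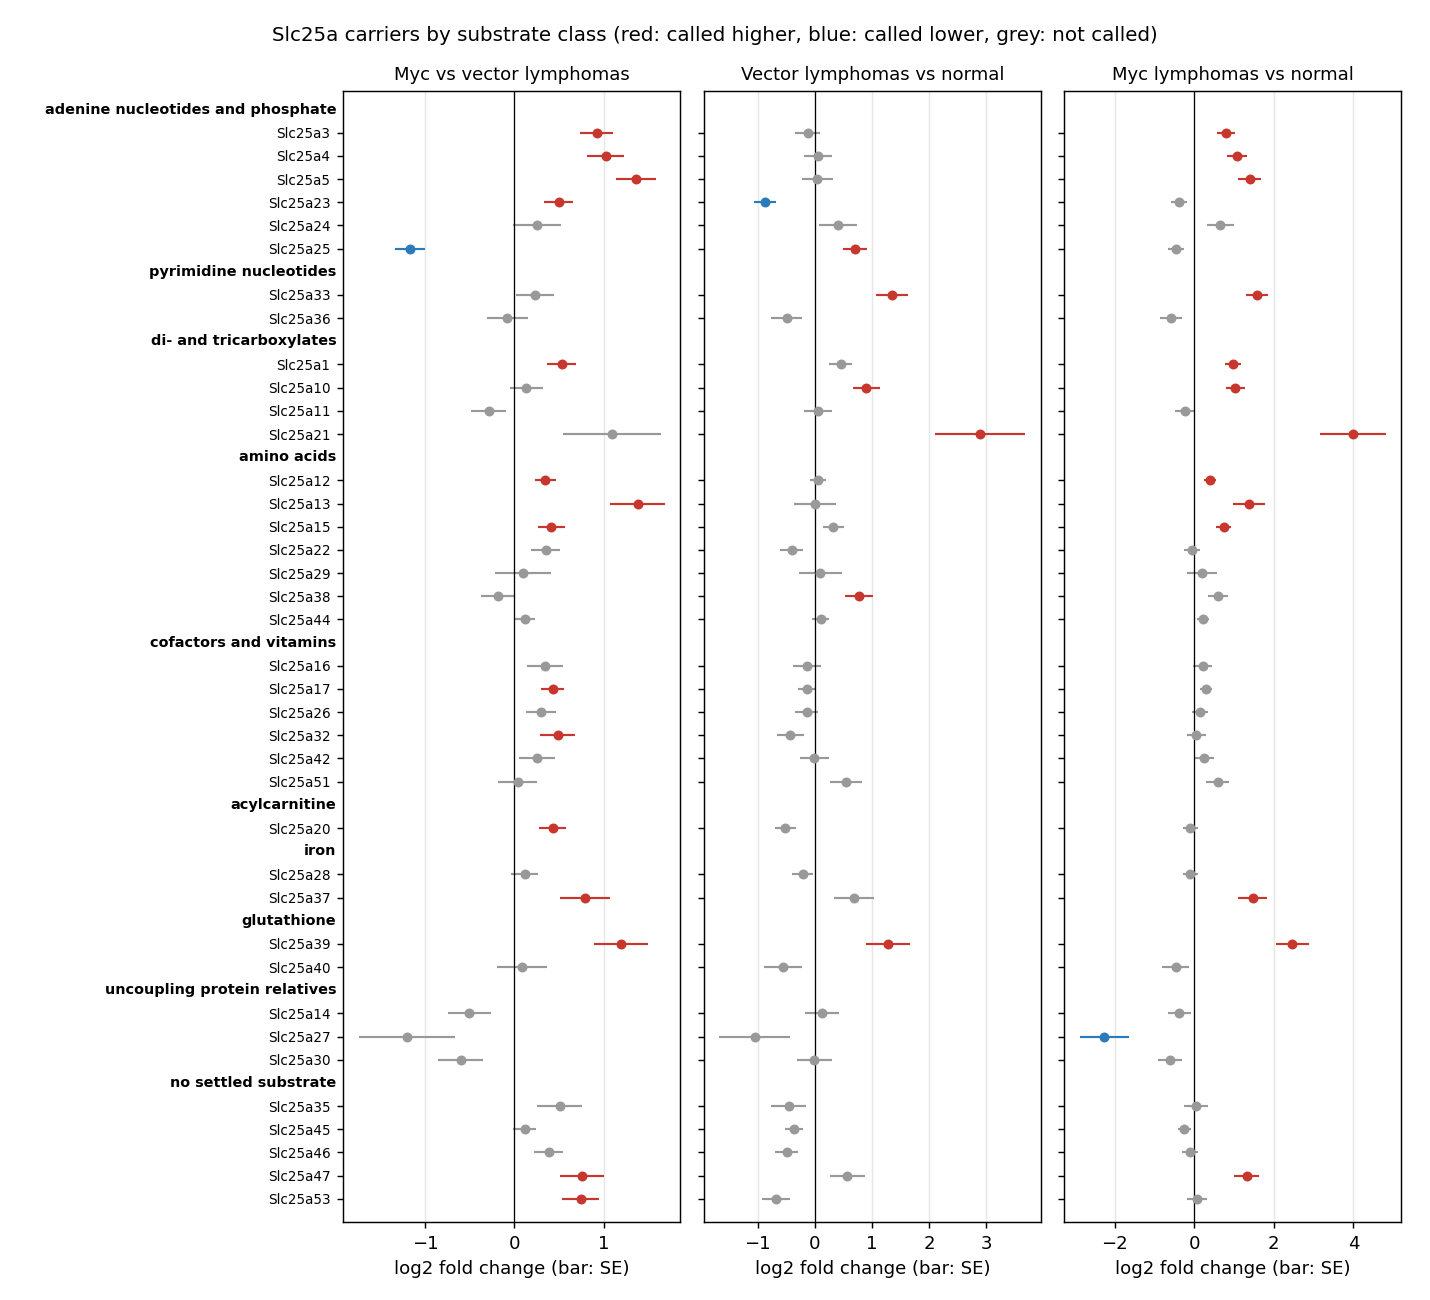
Log2 fold change of the carriers named in the text (point, with its standard error as a bar) in the 3 comparisons, grouped by substrate class, with calls at adjusted p under 0.05 in red (higher) and blue (lower). Of the Myc against vector values 31 sit right of 0, with Slc25a25 (-1.17) called on the left, and the x axes differ in range between the panels.

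These counts changed with how the sequencing run was handled, and the cause was not tested. Within the earlier runs 0 carriers rose and 1 fell in Myc against 2 vector lymphomas, beside 2.97% and 4.40% of all genes, and all 17 calls kept their sign. When all 20 samples were fitted with a term for the later runs, 2 rose and 2 fell, beside 9.20% and 9.77% of all genes, among them Slc25a5 and Slc25a15 (higher) and Slc25a25 (lower). For vector lymphomas against normal cells, 0 of 8 calls held within the earlier runs (2 samples against 3; 0.621% of all genes rose and 0.0432% fell) and 4 held with the run term, beside 4.86% of all genes higher and 2.01% lower. Of the 15 calls between Myc lymphomas and normal cells, 11 held within the earlier runs (8 samples against 3), where 12.7% of all genes rose and 7.97% fell. With the run term 14 carriers rose and 2 fell, beside 20.6% and 16.3% of all genes.

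Of the 6 carriers of adenine nucleotides and phosphate, 4 rose and 1 fell in Myc against vector lymphomas, beside 26.6% and 21.9% of all genes. Slc25a5, an ADP/ATP carrier, was at 130, 179, 163 and 169 CPM in normal cells, at 121 to 261 CPM in vector lymphomas (median 148) and at 262 to 848 CPM in Myc lymphomas (median 367). All Myc lymphomas thus lay above all vector lymphomas, the lowest by a narrow margin over vector replicate 7. Its log2 fold change was 1.36 ± 0.23 (SE; adjusted p = 7.41e-05), or 2.56-fold, and 0.99 with the run term (adjusted p = 0.0245), but 0.95 within the earlier runs (adjusted p = 0.184). Reads that map to several places are not in the gene counts; they were 14.3% to 17.9% of the listed counts in normal samples, 15.4% to 31.3% in vector lymphomas and 22.2% to 40.3% in Myc lymphomas, and reads shared with pseudogene copies of Slc25a5 would be among them.

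Slc25a4, the second ADP/ATP carrier, was at 52.8, 64.8, 63.0 and 60.8 CPM in normal cells, 43.0 to 97.3 CPM in vector lymphomas (median 57.8) and 95.4 to 246 CPM in Myc lymphomas (median 116). The lymphoma groups overlapped only through vector replicate 7, and the log2 fold change was 1.02 ± 0.20 (adjusted p = 0.000428; 0.67 and adjusted p = 0.0801 with the run term, 0.58 and 0.315 within the earlier runs). Slc25a3, which imports phosphate, was at 233, 260, 252 and 341 CPM, at 196 to 385 CPM (median 224) and at 373 to 798 CPM (median 437). It rose by 0.92 ± 0.18 (adjusted p = 0.000393), again with vector replicate 7 inside the Myc range. The values were 0.54 with the run term (adjusted p = 0.0871) and 0.45 within the earlier runs (adjusted p = 0.407). Vector lymphomas and normal cells overlapped for all of these 3 carriers, with log2 fold changes of 0.04 (Slc25a5), 0.06 (Slc25a4) and -0.13 (Slc25a3). Against normal cells, Myc lymphomas were higher by 1.40 ± 0.29 for Slc25a5 (adjusted p = 0.000983), 1.08 ± 0.26 for Slc25a4 (adjusted p = 0.00303) and 0.79 ± 0.23 for Slc25a3 (adjusted p = 0.0101). Myc replicate 5, the sample with the most erythroid marker RNA, had the highest level of each; without it the Myc against vector values were 1.14, 0.82 and 0.77, with adjusted p of 3.48e-05, 0.000275 and 0.000247.

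The calcium-regulated ATP-Mg/phosphate carriers, which set the size of the matrix adenine nucleotide pool, moved apart. Slc25a25 was at 29.8, 27.5, 22.9 and 30.0 CPM in normal cells, 30.8 to 59.1 CPM in vector lymphomas (median 43.1) and 11.3 to 24.4 CPM in Myc lymphomas (median 21.9). All vector lymphomas lay above all normal and all Myc samples. The log2 fold change was -1.17 ± 0.17 in Myc against vector lymphomas (adjusted p = 1.54e-05; -0.79 and 0.113 in the earlier runs) and 0.71 ± 0.21 in vector lymphomas against normal cells (adjusted p = 0.0323; 0.40 and 0.879 in the earlier runs). Slc25a23 was instead lowest by median in vector lymphomas. It was at 23.6, 25.2, 24.9 and 27.3 CPM in normal cells, 9.80 to 22.1 CPM in vector lymphomas (median 13.1) and 14 to 25.9 CPM in Myc lymphomas (median 19.0). It fell by 0.88 ± 0.19 on the log2 scale in vector lymphomas against normal cells, without overlap (adjusted p = 0.00561). In Myc against vector lymphomas it was higher by 0.49 ± 0.16 (adjusted p = 0.0168), and the groups overlapped. Within the earlier runs these 2 values were -1 (adjusted p = 0.142) and 0.61 (adjusted p = 0.157). With the run term they were -0.90 (adjusted p = 0.0194) and 0.53 (adjusted p = 0.128). Slc25a24 passed in no comparison, with group means of 10.5, 13.9 and 16.5 CPM. It was at 3.79 CPM in Myc replicate 5. Without that sample it was called higher in Myc lymphomas against normal cells (log2 fold change 0.83, adjusted p = 0.0119). The call of Slc25a25 between vector lymphomas and normal cells was lost when any 1 of the 4 normal samples or vector replicates 2, 4 or 5 was left out (log2 fold change 0.64 to 0.80, highest adjusted p 0.118).

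**Figure D2:**
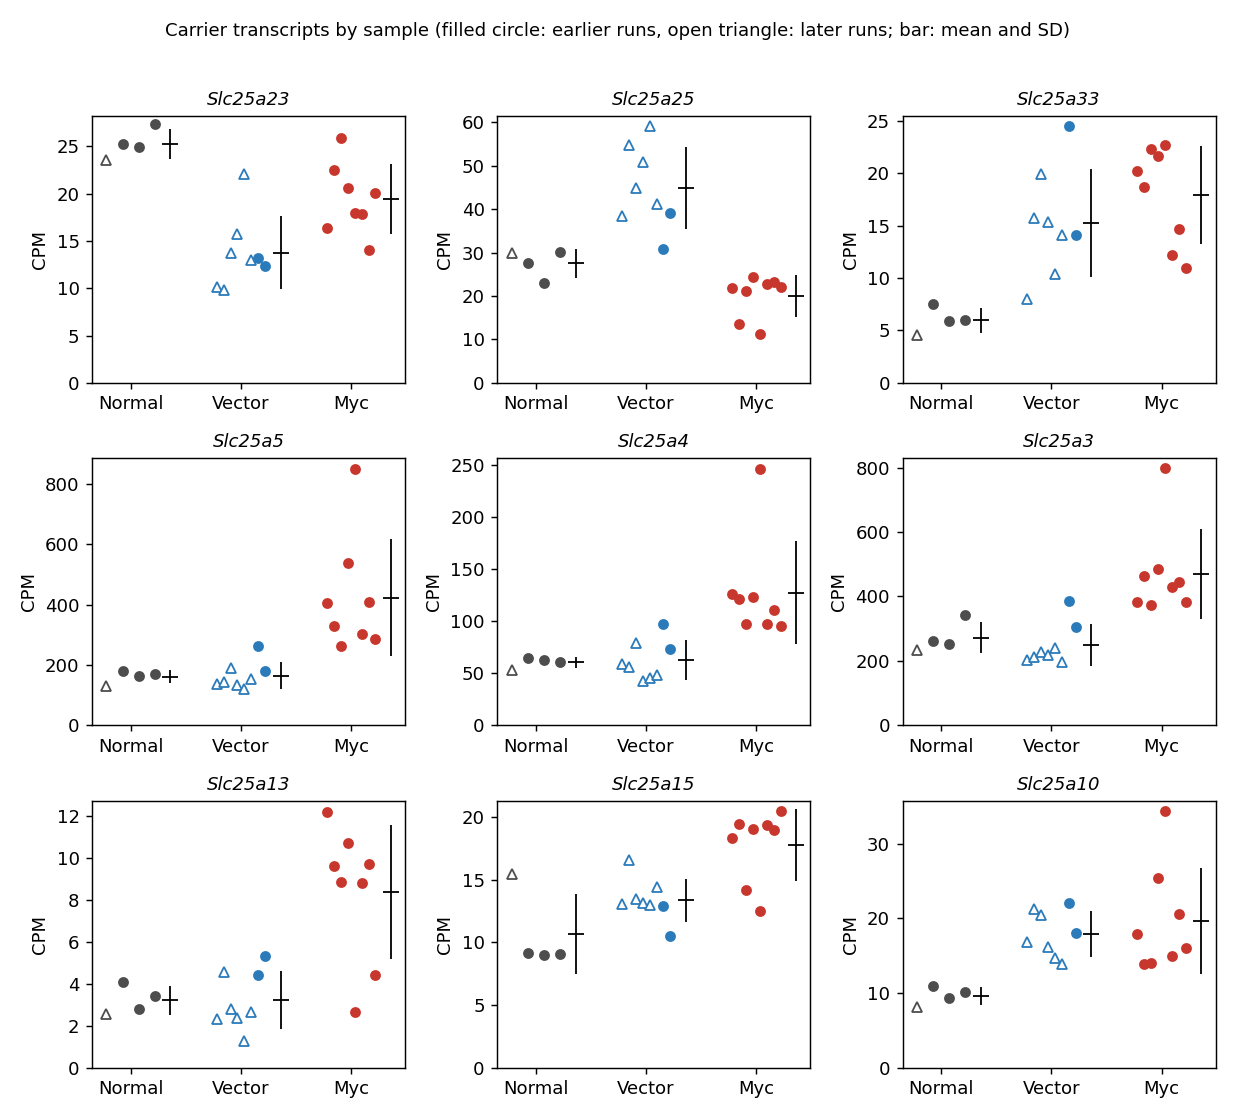
TMM-scaled CPM of 9 carriers in each of the 20 samples (filled circles, earlier runs; open triangles, later runs), with the mean and SD of each group as a cross and bar. The mean of Slc25a25 is highest in vector lymphomas and that of Slc25a23 is lowest there, Slc25a33 and Slc25a10 are higher in both lymphoma groups than in normal cells, and 1 Myc lymphoma stands far above the others for Slc25a3, Slc25a4 and Slc25a5.

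Among the carriers of cofactors and vitamins, Slc25a17 and Slc25a32 rose in Myc against vector lymphomas, beside 26.6% of all genes. Slc25a17, the peroxisomal carrier of the family, which exchanges coenzyme A and related cofactors, rose by 0.43 ± 0.13 in Myc against vector lymphomas (20.9 to 31.6 against 25.2 to 44.5 CPM; adjusted p = 0.00935; 0.26 and 0.564 in the earlier runs). Slc25a32, linked to folate and FAD import, was at 8.42 to 15.4 CPM in vector and 6.32 to 22.2 CPM in Myc lymphomas, and its call (0.48 ± 0.20; adjusted p = 0.0483) remained in 4 of the 20 fits that left out 1 sample; those 4 left out vector replicate 6, vector replicate 7, Myc replicate 5 or Myc replicate 8. In the other 16 the adjusted p reached up to 0.103, with a log2 fold change of at least 0.39. Within the earlier runs the value was 0.28 (adjusted p = 0.702). Of the same class, 4 did not pass: Slc25a16 and Slc25a42 (both linked to coenzyme A), Slc25a26 (S-adenosylmethionine) and Slc25a51 (NAD+), with Myc against vector values of 0.35, 0.25, 0.30 and 0.04. Slc25a16 was at 5.33 CPM in Myc replicate 5 and at 15.0 to 21.7 CPM in the other 7, and it was called in that comparison without that sample (0.48; adjusted p = 0.00463). Slc25a51 was at 0.87 in Myc against vector lymphomas within the earlier runs (adjusted p = 0.156) and at 0.68 with the run term (adjusted p = 0.110). Between Myc lymphomas and normal cells it was called only with the run term (0.77 and adjusted p = 0.0195, beside 0.59 and 0.0976 in the main fit).

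Of the pyrimidine nucleotide carriers, Slc25a33 was at 4.54, 7.48, 5.89 and 5.97 CPM in normal cells, 8.04 to 24.5 CPM in vector lymphomas (median 14.7) and 10.9 to 22.7 CPM in Myc lymphomas (median 19.5). All lymphomas lay above all normal samples, while the lymphoma groups overlapped. It was 2.56-fold higher in vector lymphomas (log2 fold change 1.35 ± 0.28; adjusted p = 0.00335) and 3-fold higher in Myc lymphomas (1.59 ± 0.28; adjusted p = 0.000245) than in normal cells, and differed by 0.23 ± 0.21 between the lymphomas (adjusted p = 0.382). Within the earlier runs the values were 1.59 (adjusted p = 0.0697) and 1.5 (adjusted p = 0.00436). Its partner Slc25a36 was at 38.5 to 48.6 CPM in normal cells, 18.6 to 48.2 CPM in vector lymphomas and 9.46 to 40.4 CPM in Myc lymphomas, and passed in no comparison.

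Of the 4 di- and tricarboxylate carriers, 1 rose in Myc against vector lymphomas (26.6% of all genes), 2 in vector lymphomas against normal cells (7.46%) and 3 in Myc lymphomas against normal cells (21.5%). Slc25a10, which exchanges malate or succinate for phosphate, was at 8.06, 10.9, 9.38 and 10.1 CPM in normal cells, 13.9 to 22 CPM in vector lymphomas and 13.9 to 34.4 CPM in Myc lymphomas. All lymphomas lay above the normal range, by 0.90 ± 0.23 (vector; adjusted p = 0.0158) and 1.03 ± 0.24 (Myc; adjusted p = 0.00205). The first call was lost without normal replicate 1 (adjusted p = 0.0505), and over all fits without 1 sample the value was 0.85 to 1.00. Slc25a1, which exports the citrate used for cytosolic acetyl-CoA, was at 16.8 to 21.0 CPM in normal cells, 20.2 to 36.4 CPM in vector lymphomas and 26.6 to 64.2 CPM in Myc lymphomas. It rose by 0.53 ± 0.16 in Myc against vector lymphomas (adjusted p = 0.0113; 0.31 both in the earlier runs and with the run term, adjusted p = 0.572 and 0.355) and by 0.98 ± 0.21 against normal cells (adjusted p = 0.00116), the latter without overlap. Acly, which cleaves that citrate, had group means of 264, 263 and 305 CPM and passed in no comparison.

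Slc25a21, the oxodicarboxylate carrier of lysine and tryptophan breakdown, was at 0.245, 1.87, 0.220 and 0.0835 CPM in normal cells, 1.39 to 9.27 CPM in vector lymphomas (median 4.64) and 1.95 to 19.1 CPM in Myc lymphomas (median 9.25). All Myc lymphomas were above the normal samples, whereas normal replicate 2 fell within the range of the vector lymphomas. The log2 fold changes over normal cells were 2.89 ± 0.79 (vector; adjusted p = 0.0201) and 3.99 ± 0.83 (Myc; adjusted p = 0.00102), and without normal replicate 2, the highest normal sample, they were 4.64 and 5.72. The vector call was lost without normal replicates 1, 3 or 4 (highest adjusted p 0.0771). Its value within the earlier runs was 1.43 (adjusted p = 0.821). Its annotated exons overlap Pax9 on the other strand, and Slc25a10, Slc25a11, Slc25a23, Slc25a25, Slc25a26, Slc25a33, Slc25a35 and Slc25a46 also overlap a counted gene on the other strand; whether strand was used in counting is not stated by the labels, so reads of such partners may not be told apart. Slc25a11, the oxoglutarate/malate carrier, was at 60.2 to 80.0, 52.6 to 100 and 41.2 to 122 CPM and passed in no comparison, but in Myc against vector lymphomas it was called lower (-0.51; adjusted p = 0.00439) without Myc replicate 5.

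Of the 7 amino acid carriers 3 rose and 0 fell in Myc against vector lymphomas, beside 26.6% and 21.9% of all genes. The aspartate/glutamate carriers Slc25a12 and Slc25a13 run the malate-aspartate shuttle. Slc25a13 was at 2.56, 4.10, 2.81 and 3.40 CPM in normal cells, 1.29 to 5.33 CPM in vector lymphomas (median 2.73) and 2.67 to 12.2 CPM in Myc lymphomas (median 9.22). Of the Myc lymphomas, 6 lay above all other samples and replicates 5 and 8 did not. Its log2 fold change was 1.38 ± 0.31 over vector lymphomas (adjusted p = 0.00108; 0.89 and 0.121 with the run term, 0.80 and 0.357 in the earlier runs) and 1.38 ± 0.39 over normal cells (adjusted p = 0.00903).

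Slc25a12 had the higher level per kilobase of exon, 7.77 CPM per kb in normal cells beside 0.85 for Slc25a13. At 49.3 to 62.9 CPM in normal cells, 51.3 to 72.0 CPM in vector lymphomas and 62.7 to 101 CPM in Myc lymphomas, it rose by 0.35 ± 0.12 over vector lymphomas (adjusted p = 0.0207; 0.22 and 0.626 in the earlier runs, 0.18 and 0.460 with the run term) and 0.40 ± 0.15 over normal cells (adjusted p = 0.0369). The first call was lost without Myc replicate 7 (adjusted p = 0.0696) and the second without normal replicates 1 or 4 or Myc replicates 4 or 7 (highest adjusted p 0.104, log2 fold change at least 0.36). Slc25a15, which imports ornithine, was at 15.5, 9.12, 9.03 and 9.09 CPM in normal cells, 10.5 to 16.6 CPM in vector lymphomas and 12.5 to 20.5 CPM in Myc lymphomas. It rose by 0.41 ± 0.15 over vector lymphomas (adjusted p = 0.0284) and by 0.74 ± 0.19 over normal cells (adjusted p = 0.00483). The first value was 0.74 with the run term (adjusted p = 0.00835) and 0.62 in the earlier runs (adjusted p = 0.174). That first call was lost without vector replicate 8 or Myc replicates 6, 7 or 8 (highest adjusted p 0.0813, log2 fold change at least 0.35). Slc25a38, the glycine carrier of heme synthesis, rose in vector lymphomas against normal cells and is described with the iron carriers. Slc25a22 (glutamate), Slc25a29 (basic amino acids) and Slc25a44 (branched-chain amino acids) had group means of 44.5, 33.5 and 42.7 CPM, 2.52, 2.69 and 2.88 CPM, and 34.4, 36.9 and 40.1 CPM, and none of the 3 passed.

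Carriers tied to heme and iron are given beside the erythroid markers. Slc25a37 (mitoferrin-1, the main iron importer of red cell precursors) was at 152, 238, 142 and 141 CPM in normal cells, 147 to 427 CPM in vector lymphomas (median 229) and 269 to 1148 CPM in Myc lymphomas (median 387). The highest normal sample, replicate 2, was the one with 3445 CPM of erythroid markers beside 226 to 306 CPM in the other 3. Slc25a37 rose by 0.79 ± 0.28 in Myc against vector lymphomas (adjusted p = 0.0234) and by 1.47 ± 0.36 against normal cells (adjusted p = 0.0035); without Myc replicate 8, at 1148 CPM, the first value was 0.46 (adjusted p = 0.0823). Within the earlier runs it was 1.33 (adjusted p = 0.133). Slc25a28 (mitoferrin-2, the form of other tissues) had group means of 40.3, 34.8 and 37.7 CPM and passed in no comparison.

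Slc25a39, a glutathione importer abundant in red cell precursors, was at 26.0, 40.6, 39.4 and 39.2 CPM in normal cells, 62.9 to 104 CPM in vector lymphomas (median 94.8) and 81.2 to 539 CPM in Myc lymphomas (median 163). All lymphomas lay above all normal samples. It rose by 1.28 ± 0.38 in vector lymphomas (adjusted p = 0.034) and by 2.47 ± 0.41 in Myc lymphomas (adjusted p = 0.000133) over normal cells, and by 1.19 ± 0.30 between the lymphomas (adjusted p = 0.00278; 0.80 and 0.00379 without Myc replicate 5). The value between the lymphomas was 1.66 within the earlier runs (adjusted p = 0.106) and 1.37 with the run term (adjusted p = 0.053). Its relative Slc25a40 had group means of 8.5, 5.79 and 6.14 CPM and passed in no comparison. Slc25a38 was at 37.4, 40.4, 39.5 and 37.3 CPM in normal cells and 42.6 to 89.2 CPM in vector lymphomas, without overlap (0.78 ± 0.24; adjusted p = 0.042). The vector against normal calls of Slc25a39 and Slc25a38 were lost without any 1 of the 4 normal samples, and without vector replicates 2, 3 or 6 (Slc25a39) or 1 to 6 (Slc25a38), with adjusted p up to 0.0983 and 0.102. Within the earlier runs the values were 0.69 for Slc25a39 (adjusted p = 0.882) and 0.14 for Slc25a38 (adjusted p = 0.971). With the run term they were 1.14 and 0.46 (adjusted p = 0.158 and 0.346).

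All 14 erythroid markers rose in vector and in Myc lymphomas over normal cells (7.46% and 21.5% of all genes) and 5 of 14 rose in Myc against vector lymphomas (26.6%); none was at 0 throughout a group. Vector replicates 7 and 8, which had the lowest erythroid sums of the lymphomas (3759 and 5439 CPM), were at 62.9 and 64.0 CPM for Slc25a39 and at 42.6 CPM each for Slc25a38, the lowest of their group. They are also the only vector lymphomas of the earlier runs. Erythroid level and run cannot be told apart there. Myc replicates 5 and 8, with the highest sums (86003 and 47703 CPM), were at 539 and 247 CPM for Slc25a39 and at 86.6 and 90.5 CPM for Slc25a38, the highest of theirs. Not every sample followed this order. Myc replicate 5 was at 427 CPM for Slc25a37, beside 452 CPM in Myc replicate 3 with a sum of 19292 CPM. Vector replicate 5 had the highest Slc25a38 level of its group (89.2 CPM) at a sum of 13488 CPM. Vector replicate 6, with 20042 CPM, was at 78.2 CPM. Normal replicate 2 was at 40.6 CPM for Slc25a39, beside 39.4 and 39.2 CPM in normal replicates 3 and 4. With the logarithm of the erythroid sum as a term in the fit, a check added after the data were seen, 16 of the 17 Myc against vector calls remained, the exception being Slc25a37 (0.53; adjusted p = 0.0574), and 23.0% of all genes rose and 21.1% fell. Slc25a39 kept 0.74 of its 1.19 (adjusted p = 0.00939). Against normal cells the term left 1 of 15 Myc calls (Slc25a13, just under the threshold) and 0 of 8 vector calls, beside 2.00% and 1.55% of all genes higher and 1.34% and 0.365% lower. The erythroid sum of every lymphoma was above that of every normal sample, so group and term cannot be told apart there.

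**Figure D3:**
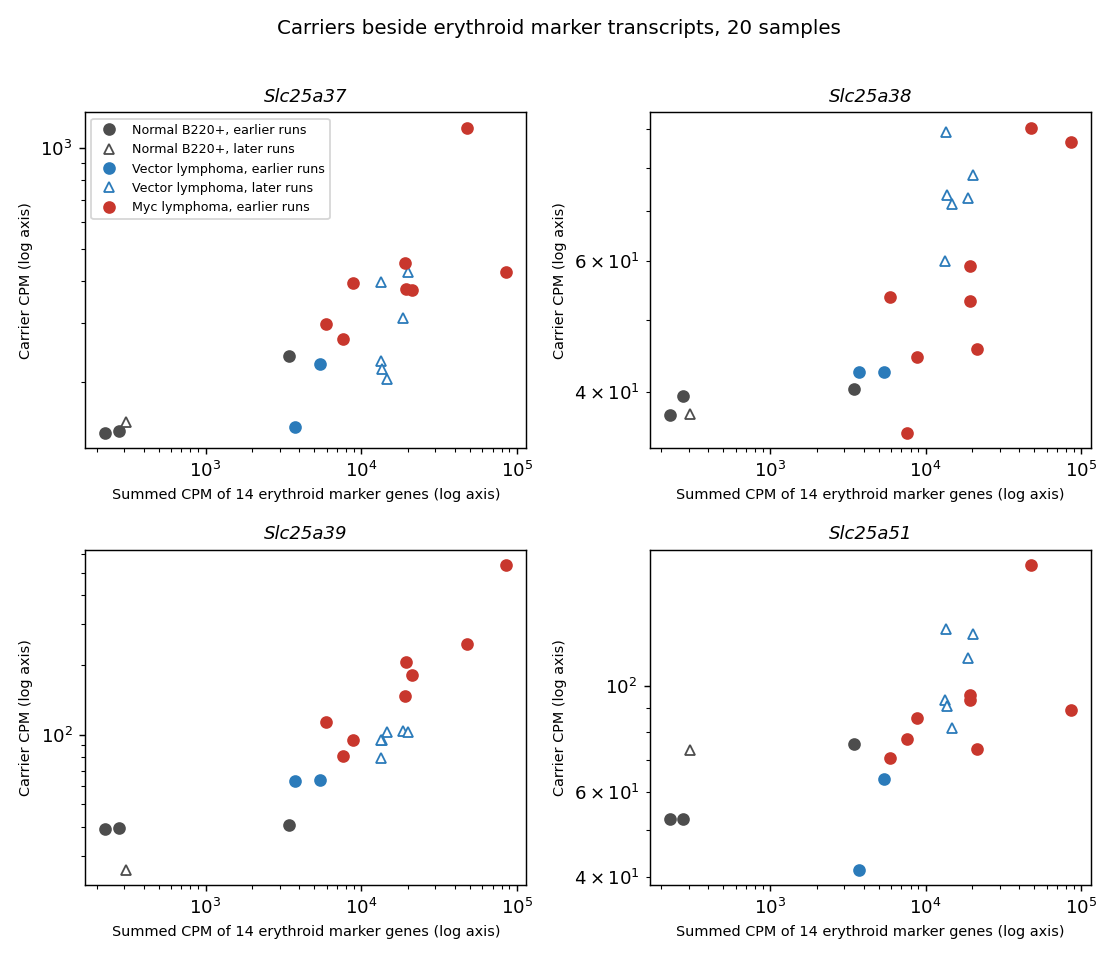
CPM of Slc25a37, Slc25a38, Slc25a39 and Slc25a51 in each of the 20 samples (y, log axis) against the summed CPM of 14 erythroid marker genes (x, log axis), coloured by group, with later runs as open triangles. The normal samples sit at the left and are the lowest for Slc25a39, the Myc lymphomas with 86003 and 47703 CPM of erythroid markers have the highest Slc25a39 levels, and the 2 vector lymphomas of the earlier runs have the lowest Slc25a38, Slc25a39 and Slc25a51 levels of their group.

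Slc25a20, which exchanges acylcarnitine for carnitine ahead of fatty acid oxidation, was at 22.3 to 27.4 CPM in normal cells, 12.8 to 23.2 CPM in vector lymphomas and 17.2 to 28.6 CPM in Myc lymphomas. It rose by 0.43 ± 0.15 in Myc against vector lymphomas (adjusted p = 0.0258; 0.10 and 0.842 in the earlier runs, 0.25 and 0.419 with the run term), a call lost without vector replicates 2, 4 or 5 or Myc replicates 6 or 7 (highest adjusted p 0.0842, log2 fold change at least 0.35). Myc lymphomas and normal cells differed by -0.09 ± 0.19 (adjusted p = 0.709). The relatives of the uncoupling proteins, Slc25a14, Slc25a27 and Slc25a30, all had negative Myc against vector values (-0.50, -1.20 and -0.60) and none passed (adjusted p = 0.0916, 0.0681 and 0.0559). With DESeq2, Slc25a27 and Slc25a30 were called lower, as they were in 3 and 5 of the 20 fits that left out 1 sample. Slc25a30 was also called with RLE scaling, without the low-count filter, and without mitochondrially encoded and immunoglobulin genes. Within the earlier runs neither was called (-0.84 and -0.26, adjusted p = 0.628 and 0.783). Slc25a27 was at 5.31, 3.92, 4.33 and 3.80 CPM in normal cells, 0.936 to 4.82 CPM in vector lymphomas and 0 to 1.92 CPM in Myc lymphomas. All Myc lymphomas lay below all normal samples (log2 fold change -2.26 ± 0.62; adjusted p = 0.0072; -2.13 and 0.0573 in the earlier runs).

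Among the 5 carriers with no settled substrate, Slc25a47 and Slc25a53 rose in Myc against vector lymphomas, beside 26.6% of all genes. Slc25a53 was at 26.0 to 39.2 CPM in normal cells, 12.5 to 27.2 CPM in vector lymphomas and 12 to 47.4 CPM in Myc lymphomas (0.74 ± 0.21; adjusted p = 0.00588); Myc replicate 5 was at 12 CPM and the other 7 at 28.4 CPM or more. Slc25a47 was at 0.551 to 0.961 CPM, 0.748 to 1.46 CPM and 1.23 to 2.51 CPM, and rose by 0.75 ± 0.25 over vector lymphomas (adjusted p = 0.0159) and 1.32 ± 0.32 over normal cells (adjusted p = 0.00303). Within the earlier runs the Myc against vector values were 0.53 for Slc25a53 (adjusted p = 0.450) and 0.86 for Slc25a47 (adjusted p = 0.298). With the run term they were 0.60 and 0.90 (adjusted p = 0.157 and 0.0746). Slc25a35, Slc25a45 and Slc25a46 had group means of 3.58, 2.61 and 3.71 CPM, 52.9, 41.2 and 44.6 CPM, and 37.8, 26.9 and 35.1 CPM, and passed in no comparison.

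Log2 count ratios between related carriers in the same library are given as descriptions. The ratio of Slc25a33 to Slc25a36 was -2.86 ± 0.26 (SD, n = 4) in normal cells, -1.0 ± 0.66 (n = 8) in vector lymphomas and -0.63 ± 0.89 (n = 8) in Myc lymphomas, with 8 of 8 vector and 8 of 8 Myc lymphomas above the normal range. The ratio of Slc25a10 to Slc25a11 likewise lay above the normal range in all 16 lymphomas, at -2.87 ± 0.17, -2.01 ± 0.31 and -1.58 ± 0.26. So did Slc25a39 to Slc25a40, at 2.07 ± 0.34, 4.00 ± 0.79 and 4.91 ± 1.52.

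The ratio of Slc25a12 to Slc25a13 was at 4.16 ± 0.26, 4.32 ± 0.61 and 3.29 ± 0.87 in the same order of groups; of the Myc lymphomas 7 of 8 lay below the normal range and replicate 5 above it. Slc25a24 to Slc25a25 was at -1.40 ± 0.20, -1.73 ± 0.55 and -0.40 ± 0.68, with 7 of 8 Myc lymphomas above the normal range. Slc25a4 to Slc25a5 was at -1.40 ± 0.08, -1.41 ± 0.17 and -1.70 ± 0.23, and the Myc and vector lymphomas overlapped. Slc25a28 to Slc25a37 was below the normal range in 8 of 8 Myc and 4 of 8 vector lymphomas (-2.03 ± 0.41, -2.89 ± 0.63 and -3.53 ± 0.61), and Slc25a23 to Slc25a24 was below it in 8 of 8 vector and 7 of 8 Myc lymphomas (1.28 ± 0.25, 0.01 ± 0.72 and 0.38 ± 0.84). Slc25a16 to Slc25a42 and Slc25a14 to Slc25a30 had lymphomas on both sides of the normal range in each lymphoma group.

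**Figure D4:**
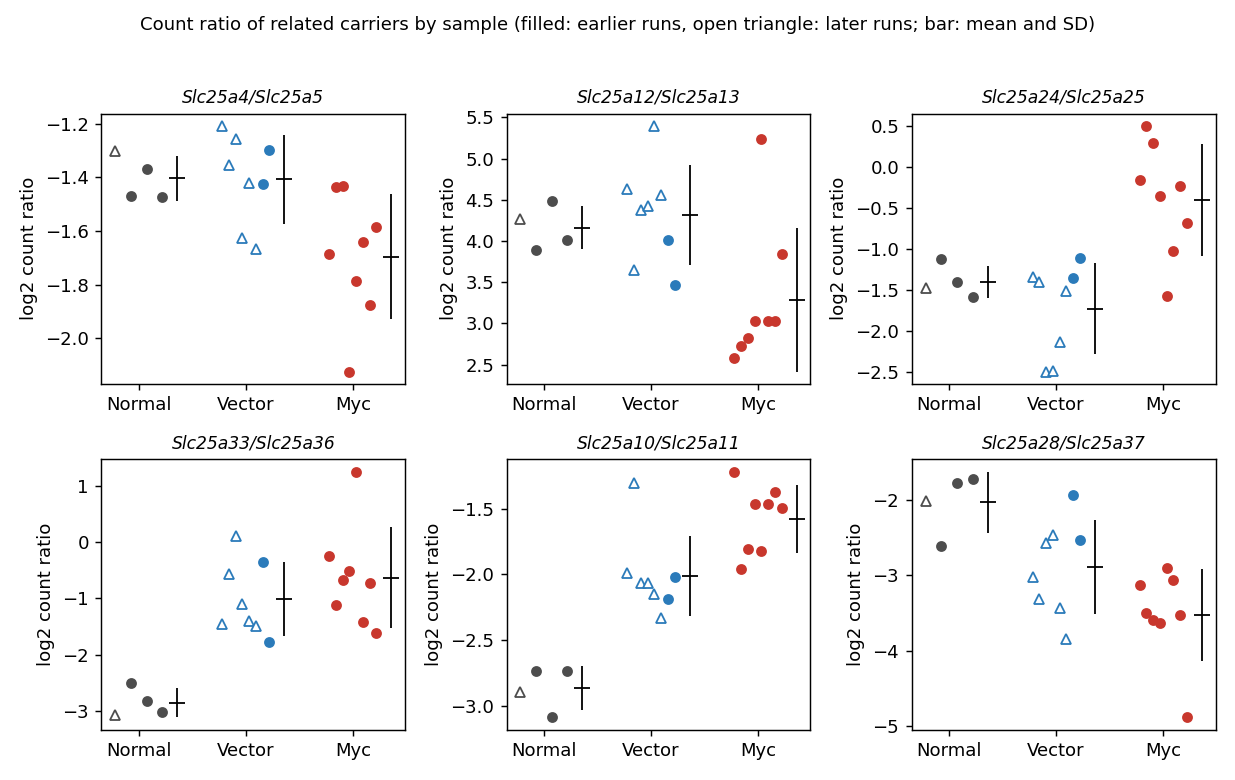
Log2 count ratio of 6 pairs of related carriers in each of the 20 samples (filled, earlier runs; open triangles, later runs), with mean and SD as a cross and bar; y axes differ and do not start at 0. Every lymphoma lies above the normal samples for Slc25a33/Slc25a36 and Slc25a10/Slc25a11, while Myc lymphomas lie mostly below the others for Slc25a12/Slc25a13.

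Levels of different carriers were compared per kilobase of exon. Slc25a5 led in each group, at 97.4 (normal), 100.2 (vector) and 257 (Myc) CPM per kb. Slc25a3 (48.9), Slc25a11 (33.1) and Slc25a37 (28.0) followed in normal cells, and Slc25a3 (84.7), Slc25a37 (77.7) and Slc25a39 (72.9) in Myc lymphomas, where the spread over samples of these 3 overlapped. The 39 carriers summed to 1539 ± 86.5 CPM in normal cells (n = 4), 1752 ± 120 CPM in vector lymphomas (n = 8) and 2598 ± 614 CPM in Myc lymphomas (n = 8). The carriers of adenine nucleotides and phosphate made up 556 ± 66.5, 549 ± 116 and 1076 ± 367 CPM of these sums.

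Genes that work beside the carriers were read from lists. Of 14 tested carriers and channels with other names, 7 rose and 2 fell in Myc against vector lymphomas, beside 26.6% and 21.9% of all genes. Sfxn1, a serine carrier of the inner membrane, was at 33.2 to 55.2 CPM in vector and 96.9 to 131 CPM in Myc lymphomas, without overlap (1.34 ± 0.12; adjusted p = 3.45e-08; 1.1 and 0.0063 within the earlier runs). Vdac1, a pore of the outer membrane, was at 52.0 to 87.1 CPM and 128 to 239 CPM, also without overlap (1.22 ± 0.14; adjusted p = 1.10e-06; 1.22 and 0.0139 within the earlier runs). Vdac2 (0.88), the pyruvate carrier subunits Mpc1 (1.00) and Mpc2 (0.97) and the carrier relatives Mtch1 (0.92) and Mtch2 (0.70) also rose. Sfxn4 and Sfxn5 fell, each by 1.14 on the log2 scale. Vdac3 (0.23) and the uncoupling protein Ucp2 (0.48; adjusted p = 0.0586) did not pass.

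Of the 11 tested genes for import of carriers into the inner membrane, 7 rose and 0 fell in that comparison (26.6% and 21.9% of all genes). Timm9 and Timm10, the small chaperones that escort carriers across the intermembrane space, rose by 1.62 ± 0.16 (10.5 ± 2.13 to 32.2 ± 8.86 CPM) and 1.94 ± 0.27, both without overlap, and the values within the earlier runs were 1.39 (adjusted p = 0.0138) and 1.78 (adjusted p = 0.0542). The receptor gene Tomm70a (0.73) and Timm13 (1.68) rose as well. Timm22 itself, the insertase channel, was at 0.28 ± 0.22 (adjusted p = 0.305).

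Of 27 tested enzymes that make or use the carriers' substrates, 12 rose and 0 fell, beside the same 26.6% and 21.9% of all genes. Got1, the cytosolic aminotransferase of the malate-aspartate shuttle, rose by 1.41 ± 0.14 without overlap (adjusted p = 1.83e-07), and its mitochondrial partner Got2 by 0.71 ± 0.13 (adjusted p = 0.000201). Slc25a12 and Slc25a13 also rose, but neither of those calls held within the earlier runs or with the run term. Me2 (malic enzyme), Shmt2 and Mthfd2 (mitochondrial folate enzymes) rose by 1.09, 1.04 and 0.95. Odc1, which uses cytosolic ornithine, rose in vector (1.88; adjusted p = 0.000578) and Myc lymphomas (2.15; adjusted p = 4.17e-05) over normal cells and was at 0.27 between the lymphomas (adjusted p = 0.352). Among the genes from these lists, only Sfxn1, Vdac1, Timm9 and Timm10 are given with values within the earlier runs. There 2.97% of all genes rose and 4.40% fell in Myc against vector lymphomas, so how the other list calls depend on the run is not shown.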

How the data were processed

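Polyadenylated RNA of B220+ cells was sequenced on an Ion Torrent instrument, per the labels' protocols. The submitters' processing notes list the build mm9 (NCBIM37) and the tools HTSeq, BWA 0.7.5a and Picard 1.119, without their settings. The authors deposited unnormalized read counts of each gene, with 5 summary lines (multi-aligned, unassigned and the like) that were left out of library sizes; 37.1% to 57.0% of each sample's listed counts were in genes. All 20 samples were fitted together in 3 groups with edgeR 4.0.16 (filterByExpr, TMM scaling, quasi-likelihood F test) in R 4.3.3, with Benjamini-Hochberg adjustment over the 17824 genes tested and a call at adjusted p under 0.05. The common biological coefficient of variation was 0.465, and the script was tested on simulated data with known changes. CPM in the text use TMM-scaled library sizes, except in the rule that chose the carriers; standard errors are the log2 fold change over the square root of F. Pair ratios used 0.5 added to each count. Exon lengths are unions of GENCODE vM21 exons, so levels per kb rest on a newer annotation than the counts. Promoters are RefSeq's, of GRCm38.p6, matched by symbol.

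The carriers, substrate classes and gene lists were chosen with earlier results of these data known. 1 carrier and 1 related gene are counted in the totals but not reported here. Values with tests are given for the 8 with the smallest p among those called in each comparison and for the pairs, and beyond these for every other called carrier described, which was decided after the values were seen. Of each list of related genes the 4 with the smallest p in Myc against vector lymphomas are named, with Ucp2, Mtch1, Mtch2, Mpc1, Mpc2, Sfxn1 and the Vdac genes; Got2, Mthfd2, Timm22, Acly and Odc1 were added after their values were seen. Alternatives were DESeq2 1.42.0, other scaling and filters, sequencing run, 2-group fits, stricter member rules, each sample left out and the erythroid term. Replicate numbers follow accession order and name samples only.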

Additional observations from a re-analysis of the deposited data

Results flagged for a closer look

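Dixon's test at its 95% level set the highest or lowest sample against its nearest neighbour. It flagged 18 of 117 carrier and group combinations (15.4%). For independent, normally distributed values chance alone flags about 1 in 20, or 5.85. The CPM were not transformed and the combinations share the same 20 libraries, so 18 beside 5.85 does not measure an excess. A single library gave 9 of the 18. Myc lymphoma replicate 5 was the highest of its group for Slc25a5 (848 CPM, next 537), Slc25a3 (798, next 484), Slc25a39 (539, next 247), Slc25a4 (246, next 126), Slc25a11 (122, next 70.1), Slc25a1 (64.2, next 43.6) and Slc25a26 (10.5, next 7.24). It was the lowest for Slc25a16 (5.33 CPM, next 15.0) and Slc25a30 (2.06, next 9.35). The same library had the lowest Myc level of its group (313 CPM), the highest erythroid marker sum (86003 CPM) and the highest B-cell marker sum (5460 CPM, beside 866 to 2822 CPM in the other 7). Leaving out Myc replicate 5 gave 18 higher and 4 lower carriers in Myc against vector lymphomas. The share of all genes called in that fit is not given here, so these counts are no result about the carriers. Myc replicate 5 also had the lowest TMM scaling factor of the 20 samples, 0.675 (next 0.913), and the highest multi-aligned share, 40.3%. A low factor raises every CPM of a library. Counts over the summed gene counts leave this factor out, and there replicate 5 was not the highest for Slc25a1 or Slc25a26. It had 1492 counts of Slc25a1 and 244 of Slc25a26 among 34425867, beside 2062 and 342 among 44766835 in Myc replicate 7. Dixon's test was not run on such unscaled values, so the flags as the highest sample hold only for the scaled CPM. Whether these features of the library are linked was not tested.

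Myc lymphoma replicate 8 was the highest of its group for Slc25a37 (1148 CPM, next 452) and Slc25a51 (179, next 95.7), with the second highest erythroid sum (47703 CPM). Normal replicate 2, with the highest erythroid sum of the normal samples (3445 CPM), was the highest for Slc25a37 (238 CPM, next 152) and for Slc25a21 (1.87, next 0.245). Normal replicate 1, the only normal sample of the later runs, was the highest for Slc25a15 (15.5 CPM, next 9.12) and Slc25a14 (5.49, next 3.71) and the lowest for Slc25a39 (26.0, next 39.2) and Slc25a35 (2.00, next 3.98). Vector lymphoma replicate 5 was the highest of its group for Slc25a27 (4.82 CPM, next 2.73).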

How the results depend on the processing

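Of the carriers that rose and fell in Myc against vector lymphomas (15 and 2), the counts were 0 and 1 within the earlier runs, 2 and 2 with the run term, 4 and 2 at 2-fold or more, and 15 and 4 with DESeq2. Over all genes, 5407 rose and 4381 fell with DESeq2, beside 4747 and 3907 in the main fit. For vector lymphomas against normal cells (7 and 1) they were 0 and 0 within the earlier runs, 3 and 1 with the run term, 0 and 0 with the erythroid term, 3 and 0 at 2-fold or more and 8 and 4 in a fit of these 2 groups alone. For Myc lymphomas against normal cells (13 and 2) they were 11 and 0 within the earlier runs, 1 and 0 with the erythroid term, 9 and 1 at 2-fold or more, 12 and 1 with a mean of at least 5 CPM, and 11 and 1 with at least 1 CPM in every group. Leaving out 1 sample gave 11 to 18 higher and 2 to 4 lower carriers in Myc against vector lymphomas (4 lower without Myc replicate 3, 5 or 6), 2 to 8 and 1 to 2 in vector lymphomas against normal cells (2 higher without normal replicate 1, 3 without normal replicate 3 or 4, 4 without normal replicate 2 or vector replicate 2; 2 lower without vector replicate 8 or Myc replicate 5), and 12 to 14 and 2 to 3 in Myc lymphomas against normal cells. All other counts stayed within 1.5 times the reported ones. Counts over all genes are not given for the fits of 2 groups alone or the fits without 1 sample. With the erythroid term 3 called values changed sign: Slc25a39 (-0.59; adjusted p = 0.718) and Slc25a38 (-0.27; adjusted p = 0.841) in vector lymphomas against normal cells, and Slc25a37 (-0.25; adjusted p = 0.87) in Myc lymphomas against normal cells. The cause was not tested, and the earlier runs also hold fewer samples. No paired analysis was possible because the labels give the groups no shared replicate numbers. Slc25a21 and Slc25a27, each with a mean under 1 CPM in 1 group, had the widest standard errors of the carriers in all 3 comparisons (0.54 to 0.83), but Slc25a47, also under 1 CPM in normal cells, did not.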
